A study of Mus musculus with 12 samples.

Results

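The FGF receptors Fgfr1, Fgfr2, Fgfr3 and Fgfr4, the ligand Fgf2 and the feedback and target genes Spry2, Spry4, Dusp6, Etv4 and Etv5 were examined in tumourspheres of mouse breast cancer cells. These 10 members were chosen by name, and all 10 were found among the 18278 genes of the count tables. Gene counts came from 12 libraries of poly-A RNA, with 3 libraries in each of 4 groups. LM1 and LM9 are lines established from lung metastases in NOD/SCID mice, which lack mature lymphocytes, after transposon mutagenesis of a mammary cancer line from a transgenic mouse, in which the CAG promoter drives mutant PIK3CA. The other groups carry the labels LM1 Nfib KO and, for the second line, LM9 Nfib KO. In the study's methods, such lines were derived by CRISPR-Cas9 targeting of the transcription factor gene Nfib and kept as pools of a few clones, so each would stand for the clones in its pool. All cells were grown for 6 days without serum and without attachment, from 10000 cells per mL, and the medium held EGF and basic FGF (the FGF2 protein) at 20 ng/mL each in every group. No group without basic FGF was analysed here. Library totals ran from 29249075 to 37162594 counts.

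FGFs are secreted ligands that bind receptor tyrosine kinases of the FGFR family together with heparan sulphate chains. The bound receptor phosphorylates the adaptor FRS2, which recruits GRB2 and SOS and switches on the RAS-RAF-MEK-ERK cascade. Active ERK raises transcription of the ETS factors ETV4 and ETV5 and of inhibitors that damp the same cascade: Sprouty proteins act upstream, and DUSP6 is a phosphatase that removes the activating phosphates from ERK. In the mammary gland, FGFR2 is the main FGF receptor of the epithelium and is needed for branching of the ducts, while FGFR1 is amplified in a share of breast cancers.

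The labels were checked before the members were read. Nfib mRNA was not lower in either group labelled Nfib KO. It was at 196, 217 and 241 CPM (read counts relative to library size, scaled with TMM factors) in LM1 and at 239, 238 and 228 CPM in the LM1 Nfib KO-labelled libraries, with a log2 fold change of 0.11 ± 0.16 (SE, adjusted p = 0.533 by limma-voom). LM9 was at 210.2, 120 and 133 CPM and the LM9 Nfib KO-labelled libraries were at 227, 247 and 246 CPM, a log2 fold change of 0.68 ± 0.17 (SE, adjusted p = 0.0026 by limma-voom). The study's methods describe a guide giving a frameshift in early exons, with clones screened by immunoblot. Such an edit need not lower the mRNA, so whether these libraries are the Nfib KO pools could not be told from Nfib mRNA. Directions below rest on the labels alone. Across genes, the libraries of both knockout labels were as alike (r from 0.9958 to 0.9965 between labels) as replicates of 1 label (0.9958 to 0.9964), and they correlated with parental libraries at 0.727 to 0.742. LM9 replicate 1 lay with LM1 (r from 0.9951 to 0.9955) and apart from LM9 replicates 2 and 3 (0.968 and 0.970), so each result on LM9 is given with and without it where that changes the value by over 1.5 times or the call. All libraries share 1 estimate of spread per gene, so SEs in LM1 also differ without LM9 replicate 1. In LM1, the SE of Fgfr2 went from 0.35 to 0.11, of Spry4 from 0.26 to 0.08 and of Etv4 from 0.26 to 0.05. Defining genes of mammary epithelium were measured for 7 of 10 markers listed. Their summed level was 938 to 981 CPM in LM1 and 977 to 1427 CPM in LM9, and 65.0 to 70.7 CPM in the knockout-labelled libraries, where Krt8, Krt18 and Cdh1 had at most 7 counts in any library. Fibroblast markers (7 of 8) summed to 174 to 311 CPM in the parental libraries and 1309 to 1402 CPM in those labelled knockout, endothelial markers (5 of 8) to 16.5 to 24.9 and 371 to 378 CPM with Kdr and Cdh5 at or below 2 counts in the parental libraries, and renal tubule markers (6 of 12) to 128 to 165 and 994 to 1127 CPM. Of the leukocyte markers (2 of 8) Cd68 averaged 459 and 523 CPM in LM1 and LM9 and 100.7 and 98.7 CPM under the knockout labels, whereas Csf1r had at most 1 count in a parental library and averaged 12.4 and 12.3 CPM under the knockout labels. Their sum was 450.2 to 554 CPM in the parental libraries and 107 to 117 CPM in the others. Lung epithelial markers (3 of 8) summed to 1.85 to 5.06 and 9.61 to 10.6 CPM. Genes within a list did not all go the way of its sum, since Krt14, for example, was higher under the knockout labels and Dcn, Egfl7, Ager, Aqp3 and Gata3 were lower in mean CPM. Gata3 made up 123 and 133 CPM of the renal tubule sum in LM1 and LM9, and Aqp2, with at most 1 count in a parental library, 1087 and 1008 CPM under the knockout labels. These levels moved with every contrast of a parental group and its knockout-labelled group below, and their part in the results was not tested. In bulk libraries, fewer cells of a kind and less RNA per cell cannot be told apart.

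Promoter sequences were available for 7 of the 10 members in RefSeq (GRCm38.p6), and those of Dusp6 and Fgfr2, which fell most steeply, and of Fgf2 and Fgfr4, which were nearly silent in the parental lines, are shown. Each window is 300 bases long, reads 5' to 3' on the strand of the gene and ends shortly after the transcription start site. They lie at chr10:99262981-99263280 (Dusp6, plus strand), chr7:130266759-130267058 (Fgfr2, minus strand), chr3:37348403-37348702 (Fgf2, plus strand) and chr13:55152568-55152867 (Fgfr4, plus strand). Capitals mark matches on either strand to the core of ETS factor sites (CCGGAA), the AP-1 site (TGANTCA), the core of cAMP response elements (TGACG) and the NFI core (TTGGCA). None of these strings contains another.
Dusp6: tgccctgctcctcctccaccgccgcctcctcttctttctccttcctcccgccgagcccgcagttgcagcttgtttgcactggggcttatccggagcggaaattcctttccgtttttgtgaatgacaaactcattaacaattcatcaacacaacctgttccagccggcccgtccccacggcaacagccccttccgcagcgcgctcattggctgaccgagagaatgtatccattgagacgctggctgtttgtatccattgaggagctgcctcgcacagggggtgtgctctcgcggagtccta
Fgfr2: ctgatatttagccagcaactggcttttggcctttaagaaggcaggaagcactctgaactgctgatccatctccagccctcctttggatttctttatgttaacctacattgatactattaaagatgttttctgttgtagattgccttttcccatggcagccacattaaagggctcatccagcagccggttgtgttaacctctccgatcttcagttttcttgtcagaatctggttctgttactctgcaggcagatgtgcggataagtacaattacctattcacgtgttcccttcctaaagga
Fgf2: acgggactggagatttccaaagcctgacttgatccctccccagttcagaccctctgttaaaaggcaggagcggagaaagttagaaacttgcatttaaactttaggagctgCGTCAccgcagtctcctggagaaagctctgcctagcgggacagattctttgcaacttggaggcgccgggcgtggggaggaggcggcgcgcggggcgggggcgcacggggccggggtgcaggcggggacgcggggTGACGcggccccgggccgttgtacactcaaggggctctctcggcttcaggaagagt
Fgfr4: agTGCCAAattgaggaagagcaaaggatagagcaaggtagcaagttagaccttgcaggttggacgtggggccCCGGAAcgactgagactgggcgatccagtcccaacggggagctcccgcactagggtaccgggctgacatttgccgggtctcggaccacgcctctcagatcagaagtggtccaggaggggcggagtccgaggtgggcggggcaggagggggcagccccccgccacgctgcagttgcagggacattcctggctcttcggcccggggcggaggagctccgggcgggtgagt
Dusp6 and Fgfr2 held none of the 4 strings in these windows. Fgf2 held the cAMP response core at -140 (minus strand) and at -6 (plus strand), counted from +1 at the start site without a 0, in a window of 62.7% GC. Fgfr4 held an ETS core at -178 and an NFI core at -248 on the minus strand. Over all 32851 promoter windows of the same length, 14.9% held the ETS core, 7.81% the AP-1 site, 20.8% the cAMP response core and 14.1% the NFI core. Of the other members with a window, Spry2 held an ETS core at 34, and the windows of Fgfr3 and Etv5 held none. Fgfr1, Spry4 and Etv4 had no window here. A match is a stretch of letters and not a bound site.

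The first question was which members differed between each line and the group labelled as its Nfib KO. In LM1, 10 of 10 members passed an adjusted p of 0.05, where 81.2% of the 18176 genes tested did. The LM1 Nfib KO-labelled libraries were higher for 4 members (Fgfr3, Fgfr4, Fgf2 and Etv4) and lower for 6 (Fgfr1, Fgfr2, Spry2, Spry4, Dusp6 and Etv5), against 43.1% and 38.1% of all genes. In LM9, 9 of 10 members passed, against 82.3% of all genes. There, 4 were higher (background 44.3%) and 5 lower (38.0%), and Fgfr1 did not pass. The number of members past the threshold was thus near the share of all genes, and members are described by the size of their difference. Their median absolute log2 fold change was 1.43 in LM1, beside 1.16 over all genes, and 1.45 in LM9, beside 1.24. Without LM9 replicate 1, 10 members passed in LM1 (88.6% of all genes) and 9 in LM9 (88.9%). All 10 members had groups that did not overlap in LM1 (89.1% of all genes) and 9 in LM9 (80.5%). Fgfr4 and Fgf2 passed the filter on low counts through the knockout-labelled libraries alone, as 2312 of all genes tested did, and 1332 genes passed through the parental libraries alone. For such genes a difference was built into their inclusion, so their levels are given without a p. Without Fgfr4 and Fgf2, 8 of 8 members passed in LM1 and 7 of 8 in LM9, where 78.7% and 80.2% of the genes that did not pass through 1 side alone did. The median absolute log2 fold change of these 8 members was 1.18 in LM1, beside 0.922 over those genes, and 0.983 in LM9, beside 0.994.

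**Figure D1:**
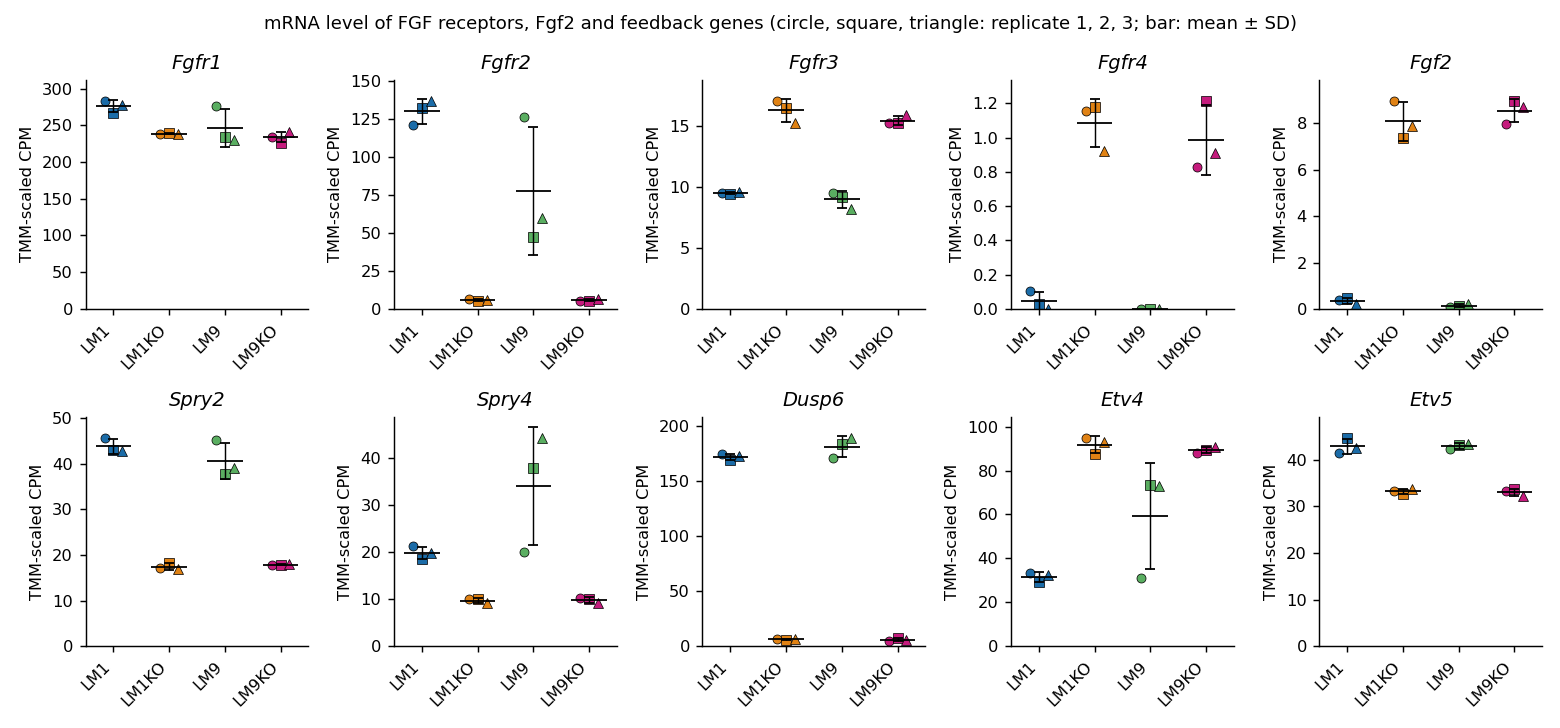
TMM-scaled CPM of each member (vertical axes, from 0, in a panel of its own) in the libraries of LM1, the group labelled LM1 Nfib KO (LM1KO), LM9 and the group labelled LM9 Nfib KO (LM9KO). Symbols are replicates 1 to 3 and bars are the mean ± SD of 3 libraries. Fgfr2 and Dusp6 drop to about 6 CPM under both knockout labels, Fgfr4 and Fgf2 appear there, and the circle of LM9 sits at the LM1 level for Fgfr2, Spry4 and Etv4.

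Among the receptors, Fgfr1 had the smallest differences. Fgfr1 (ENSMUSG00000031565, chromosome 8, 25513654 to 25575718, plus strand, mm10) was at 284, 267 and 278 CPM in LM1 and at 238, 239 and 239 CPM in the LM1 Nfib KO-labelled libraries. All the latter lay below LM1, with a log2 fold change of -0.21 ± 0.07 (SE, adjusted p = 0.0158 by limma-voom). This call was lost without LM1 replicate 1 (-0.19, adjusted p = 0.0589 by limma-voom), and under scaling by library totals the value turned to 0.0134 (adjusted p = 0.904 by limma-voom). LM9 was at 277, 234 and 230.5 CPM and the LM9 Nfib KO-labelled libraries at 235, 226 and 241 CPM, which overlapped, and the log2 fold change was -0.07 ± 0.07 (SE, adjusted p = 0.336 by limma-voom). The value turned to 0.0142 without LM9 replicate 1 (SE 0.04, adjusted p = 0.716 by limma-voom), and with quality weights to 0.00935 (adjusted p = 0.827 by limma-voom). With library totals it was 0.28 and passed in the other direction (adjusted p = 0.0228 by limma-voom). Over all genes, the median log2 fold change came to 0.08 in LM1 and 0.13 in LM9 under TMM and 0.31 and 0.49 under library totals, so Fgfr1 lay below that median under both scalings. Gm16159, on the opposite strand, shares 164 exonic bases with Fgfr1.

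Fgfr2, the epithelial FGF receptor, showed the steepest fall of the receptors. Fgfr2 (ENSMUSG00000030849, chromosome 7, minus strand) was at 121, 132 and 137 CPM in LM1 and at 6.32, 5.46 and 5.73 CPM in the LM1 Nfib KO-labelled libraries, which was 4.49% of the LM1 mean. Its log2 fold change was -4.47 ± 0.35 (SE, adjusted p = 2.62e-07 by limma-voom). In LM9 the replicates were far apart at 126, 47.3 and 59.8 CPM, while the LM9 Nfib KO-labelled ones were at 5.44, 5.42 and 6.32 CPM. The log2 fold change was -3.64 ± 0.36 (SE, adjusted p = 1.86e-06 by limma-voom), and -3.21 (SE 0.12) without LM9 replicate 1. No knockout-labelled library came near a parental one. The annotated gene runs from 130162451 to 133123350 and shares 314 exonic bases with Ctbp2 on the same strand, whose own level was between 45.1 and 60.8 CPM in the group means.

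Fgfr3 moved the other way by a smaller amount. Fgfr3 (ENSMUSG00000054252, chromosome 5, 33721674 to 33737068, plus strand) was at 9.50, 9.38 and 9.54 CPM in LM1 and rose to 17.0, 16.4 and 15.2 CPM in the LM1 Nfib KO-labelled libraries, a log2 fold change of 0.77 ± 0.08 (SE, adjusted p = 3.06e-06 by limma-voom). The LM9 libraries were at 9.51, 9.19 and 8.15 CPM and the LM9 Nfib KO-labelled ones at 15.2, 15.2 and 15.8 CPM, with a log2 fold change of 0.78 ± 0.08 (SE, adjusted p = 3.79e-06 by limma-voom). Here LM9 replicate 1 stood near the other LM9 replicates, and the changes in the lines differed by -0.01 ± 0.12 (SE, adjusted p = 0.975 by limma-voom). An uncharacterised transcript on the opposite strand, G630022F23Rik, shares 998 exonic bases with Fgfr3, and whether the counting used strand was not stated.

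Fgfr4, the receptor best known from liver and muscle, was close to silent in the parental lines. Fgfr4 (ENSMUSG00000005320, chromosome 13, 55152640 to 55168759, plus strand) had 4 counts over the LM1 libraries together, at 0.106, 0.0307 and 0 CPM, and 126 counts over the LM1 Nfib KO-labelled ones, at 1.16, 1.18 and 0.925 CPM. The ratio was 24.1, with a 95% exact counting interval from 9.17 to 89.7. Such an interval covers counting error only, and inclusion through the knockout-labelled libraries alone had fixed the direction of Fgfr4. Of the 4 counts, 3 were in LM1 replicate 1, and without it the ratio was 65.6 (interval 11.6 to 2610), while it was 16.5 (interval 6.30 to 61.6) without LM1 replicate 3. It had 0 counts in each LM9 library and 117 counts over the LM9 Nfib KO-labelled libraries, at 0.830, 1.22 and 0.910 CPM, at least 8.69-fold higher than a floor of 3 counts per library. Even in the knockout-labelled libraries the receptor stayed near 1 CPM.

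Per kilobase of exon, the receptors could be set beside each other. Fgfr1 was the most abundant receptor in every library. Its share of the summed receptor level was 66.7% ± 1.75 in LM1 and 88.5% ± 0.631 in the LM1 Nfib KO-labelled libraries (SD, n = 3), and in LM9 it was 74.9% ± 6.63 against 88.8% ± 0.356. Fgfr2 made up 28.0, 31.1 and 31.1% of the sum in LM1 and between 1.93 and 2.23% in the LM1 Nfib KO-labelled libraries. Within LM9 its share was 29.4% in replicate 1 and 15.5 and 19.1% in the others, and it was 1.98 to 2.23% under the LM9 Nfib KO label. The share of Fgfr3 went from 3.16% ± 0.0366 to 8.30% ± 0.429 in LM1 and from 3.77% ± 0.574 to 8.07% ± 0.109 in LM9. That of Fgfr4 reached 1.12% ± 0.139 and 1.05% ± 0.243, or 0.618% and 0.576% with the length of the longest transcript. The shares of Fgfr1, Fgfr2 and Fgfr3 did not overlap between a line and its knockout-labelled group. For each of them the exact two-sided permutation test gave p = 0.1, the smallest possible for 3 libraries against 3, so this test could not pass 0.05. The summed receptor level was 41.2 to 42.8 CPM per kb in LM1, 41.6 in LM9 replicate 1 and 29.5 and 30.3 in LM9 replicates 2 and 3, and 25.9 to 27.5 in the knockout-labelled libraries.

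**Figure D2:**
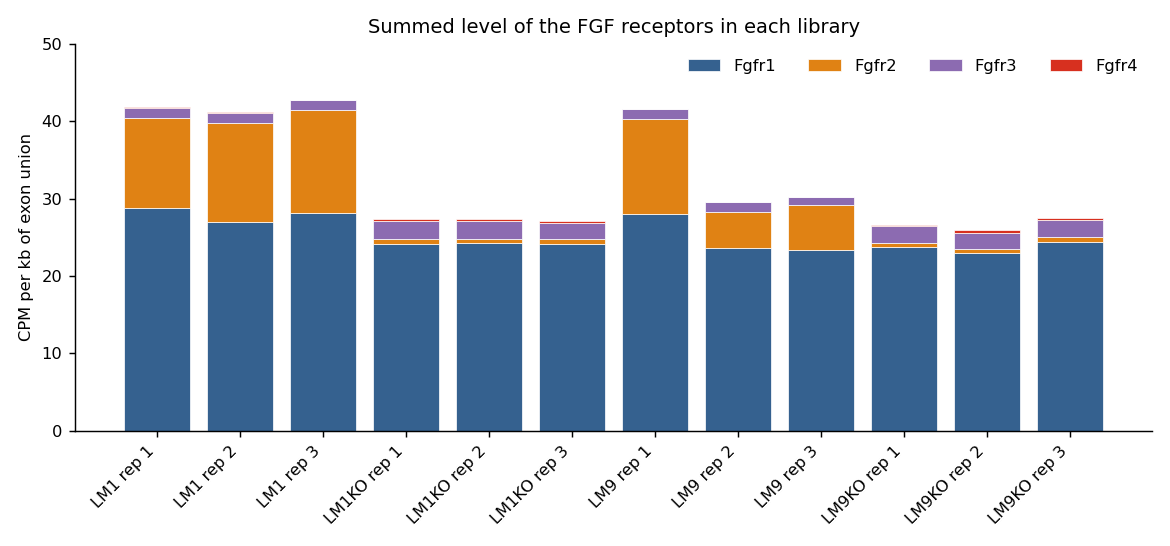
Stacked level of Fgfr1, Fgfr2, Fgfr3 and Fgfr4 in each library, in TMM-scaled CPM per kb of the union of a gene's exons (vertical axis, from 0), 1 bar per library. The Fgfr2 segment takes 28.0 to 31.1% of the bars of LM1, 29.4% of LM9 replicate 1 and 15.5 and 19.1% of LM9 replicates 2 and 3, and at most 2.23% of the bars labelled LM1KO and LM9KO.

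The ligand Fgf2, which is the gene of the basic FGF added to the medium, went from a trace to a low level. Fgf2 (ENSMUSG00000037225, chromosome 3, 37348346 to 37410108, plus strand) was at 0.390, 0.460 and 0.217 CPM in LM1, on 32 counts in all, and at 8.99, 7.37 and 7.90 CPM in the LM1 Nfib KO-labelled libraries. The fitted log2 fold change was 4.49 ± 0.28 (SE), in a direction that inclusion through the knockout-labelled libraries had fixed in both lines. In LM9 it was at 0.0675, 0.121 and 0.197 CPM, on 10 counts in all, and at 7.99, 8.98 and 8.71 CPM in the LM9 Nfib KO-labelled libraries, a fitted log2 fold change of 5.98 ± 0.34 (SE) that leans on few counts. Nudt6, which shares 640 exonic bases with Fgf2 on the opposite strand, averaged 1.12 CPM in LM1 and 1.53 CPM in the LM1 Nfib KO-labelled libraries, and 0.658 and 1.40 CPM in LM9 and its counterpart. Gm43439 shares 255 exonic bases with Fgf2 on the same strand, and averaged 0.0120 and 0.363 CPM in LM1 and its counterpart and 0.0112 and 0.363 CPM in LM9 and its counterpart.

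Among the feedback inhibitors, Dusp6 showed the largest fall of all members in both lines. Dusp6 (ENSMUSG00000019960, chromosome 10, 99263231 to 99267489, plus strand) was at 175, 169 and 173 CPM in LM1 and at 6.47, 5.93 and 6.16 CPM in the LM1 Nfib KO-labelled libraries, or 3.6% of the LM1 mean, a log2 fold change of -4.79 ± 0.12 (SE, adjusted p = 2.93e-11 by limma-voom). LM9 was at 171, 184 and 189 CPM and its counterpart at 4.62, 7.40 and 5.54 CPM, with a log2 fold change of -4.97 ± 0.12 (SE, adjusted p = 2.65e-11 by limma-voom). In LM1, 90.4% of all genes tested had a smaller absolute change than Dusp6, and 91.1% in LM9.

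Spry2 and Spry4, both Sprouty inhibitors of receptor tyrosine kinase signalling, fell by less. Spry2 (ENSMUSG00000022114, chromosome 14, 105891947 to 105896819, minus strand) was at 45.7, 43.0 and 42.8 CPM in LM1 and at 17.2, 18.3 and 16.9 CPM in the LM1 Nfib KO-labelled libraries (log2 fold change -1.33 ± 0.08 SE, adjusted p = 1.84e-08 by limma-voom). It was at 45.2, 37.8 and 39.0 CPM in LM9 and at 17.9, 17.8 and 17.9 CPM under the LM9 Nfib KO label (-1.19 ± 0.08 SE, adjusted p = 5.31e-08 by limma-voom). Every library labelled knockout lay well below every parental library. Spry4 (ENSMUSG00000024427, chromosome 18, minus strand) was at 21.2, 18.6 and 19.7 CPM in LM1 and at 9.97, 9.98 and 9.17 CPM in the LM1 Nfib KO-labelled libraries (-1.03 ± 0.26 SE, adjusted p = 0.00316 by limma-voom). Its LM9 replicates were at 20.1, 37.9 and 44.3 CPM, against 10.3, 9.998 and 9.10 CPM in their counterpart (-1.71 ± 0.25 SE, adjusted p = 5.32e-05 by limma-voom). LM9 replicate 1 was at the level of LM1 for Spry4, and without it the change was -2.06 (SE 0.08).

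Etv4 and Etv5, closely related ETS factors that are commonly read together as ERK targets, moved in opposite directions under TMM scaling, while the Etv5 fall did not pass with library totals. Etv4 (ENSMUSG00000017724, chromosome 11, 101769742 to 101785371, minus strand) was at 33.4, 29.1 and 32.6 CPM in LM1 and rose to 94.8, 87.5 and 92.9 CPM in the LM1 Nfib KO-labelled libraries, a log2 fold change of 1.54 ± 0.26 (SE, adjusted p = 0.000162 by limma-voom). In LM9 it was at 31.2, 73.2 and 73.0 CPM, and at 87.9, 89.4 and 90.6 CPM under the LM9 Nfib KO label, with a log2 fold change of 0.71 ± 0.25 (SE, adjusted p = 0.0189 by limma-voom). Without LM9 replicate 1 the rise was 0.29 ± 0.05 (SE, adjusted p = 4.16e-05 by limma-voom), and in a fit of LM9 and its counterpart alone it did not pass (adjusted p = 0.0854 by limma-voom). Etv5 (ENSMUSG00000013089, chromosome 16, 22381309 to 22439719, minus strand) was at 41.4, 44.7 and 42.6 CPM in LM1 and fell to 33.3, 32.8 and 33.8 CPM in the LM1 Nfib KO-labelled libraries (-0.37 ± 0.05 SE, adjusted p = 6.85e-05 by limma-voom). It was at 42.2, 43.2 and 43.4 CPM in LM9 and at 33.3, 33.7 and 32.2 CPM in its counterpart (-0.38 ± 0.06 SE, adjusted p = 5.83e-05 by limma-voom). The Etv5 calls were lost with library totals (-0.15, adjusted p = 0.0586 by limma-voom in LM1, and -0.02, adjusted p = 0.753 by limma-voom in LM9).

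**Figure D3:**
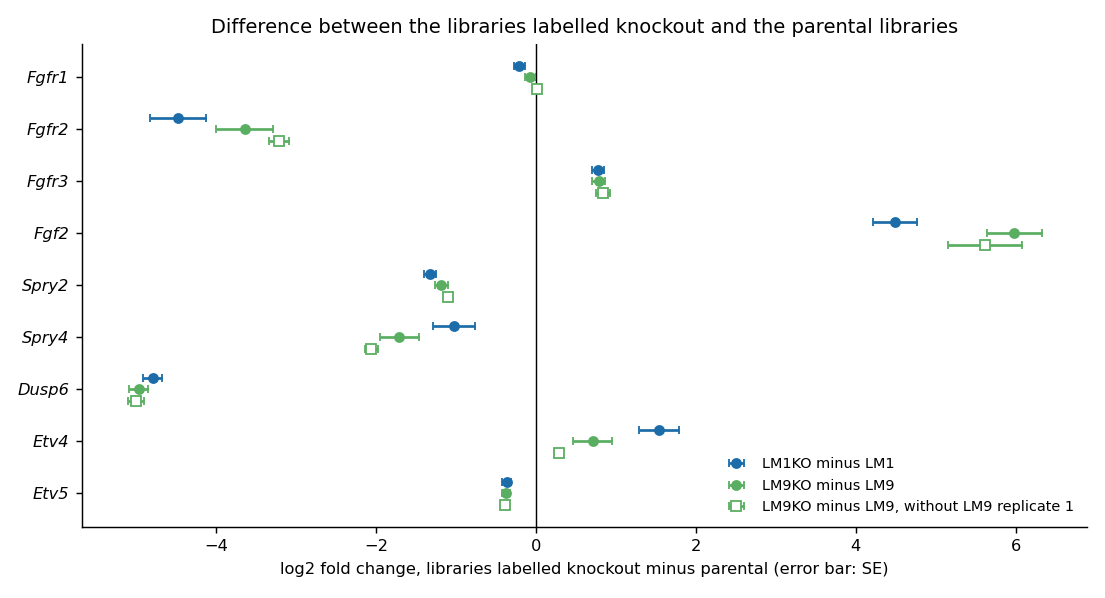
Log2 fold change (horizontal axis, knockout-labelled minus parental, error bars SE) of 9 members in LM1 (blue), in LM9 (green, filled) and in LM9 without replicate 1 (green, open squares). Fgfr4 is left out because its parental counts were at most 3 per library. Dusp6 and Fgfr2 lie furthest to the left at -4.79 and -4.47 in LM1, and Etv4 of LM9 moves from 0.71 to 0.29 without replicate 1. Fgf2, furthest to the right, had few parental counts and passed the filter through the knockout-labelled libraries alone, so its direction was fixed by inclusion.

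On the length-scaled level over all 12 libraries, the members ranked as Dusp6 (29.1 CPM per kb), Fgfr1 (25.2), Etv4 (21.9), Spry2 (14.4), Etv5 (9.28), Fgfr2 (5.31), Spry4 (3.86), Fgfr3 (1.75), Fgf2 (0.631) and Fgfr4 (0.149). That mean hides a change of order. In LM1 the Dusp6 mRNA was at 54.9 ± 0.890 CPM per kb, above Fgfr1 at 28.0 ± 0.875 (SD, n = 3), while in the LM1 Nfib KO-labelled libraries Dusp6 was at 1.97 ± 0.0863, and Etv4 at 29.6 ± 1.23 and Fgfr1 at 24.2 ± 0.0700 led the members. The groups of both knockout labels overlapped for 10 of 10 members, where 12.6% of all genes had groups that did not overlap, and their order between the labels could not be read from the data.

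The second question was whether LM1 and LM9 differed in the change or in the parental level. In the test of the difference between the changes in the lines, 0 of 10 members passed with limma-voom (0.0% of all genes), 2 members had an unadjusted p under 0.05 (24.7% of all genes), and 0 passed with edgeR or DESeq2 (0.429% of all genes with DESeq2). Without LM9 replicate 1, 5 members passed, where 57.2% of all genes did: the changes of Fgfr1, Fgfr2 and Spry2 were more negative in LM1 (differences of -0.22, -1.26 and -0.22), that of Spry4 was more negative in LM9 (1.04, SE 0.11), and Etv4 rose further in LM1 (1.25, SE 0.07). Between LM1 and LM9 themselves, 0 of 10 members passed with limma-voom (0.0055% of all genes) and with edgeR, and 5 had an unadjusted p under 0.05 (47.7% of all genes). DESeq2 called 4 (33.9% of all genes). Scaling by library totals gave 5 (28.8% of all genes), a minimum mean of 5 CPM 3 (39.4%) and quality weights 5 (63.8%), and quality weights gave 5 for the difference between the changes (58.1%). Only Fgf2 had groups that did not overlap (17.0% of all genes), at 0.217 to 0.460 CPM in LM1 and 0.0675 to 0.197 CPM in LM9. The LM9 values rest on 2, 3 and 5 counts, at or near the floor of 3 counts, so no p is given.

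That count hung on LM9 replicate 1. Without it, 5 members passed between LM1 and LM9 (65.7% of all genes). Fgfr2, Fgfr1 and Spry2 were higher in LM1, by log2 fold changes of 1.29 ± 0.08 (SE, adjusted p = 1.79e-10 by limma-voom), 0.25 ± 0.04 (SE, adjusted p = 1.21e-05 by limma-voom) and 0.19 ± 0.05 (SE, adjusted p = 0.00326 by limma-voom). Spry4 and Etv4 were lower in LM1, at -1.05 ± 0.07 (SE, adjusted p = 1.54e-09 by limma-voom) and -1.21 ± 0.06 (SE, adjusted p = 1.41e-11 by limma-voom). Fgfr3, Dusp6 and Etv5 did not pass, at 0.13 (SE 0.09), -0.12 (SE 0.05) and -0.01 (SE 0.05). Between the 2 knockout-labelled groups, 0 of 10 members passed (0.0% of all genes with limma-voom, 0 at an unadjusted p under 0.05, as 0.979% of all genes, and 0 with edgeR and DESeq2), with log2 differences from -0.08 for Fgf2 to 0.15 for Fgfr4.

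**Figure D4:**
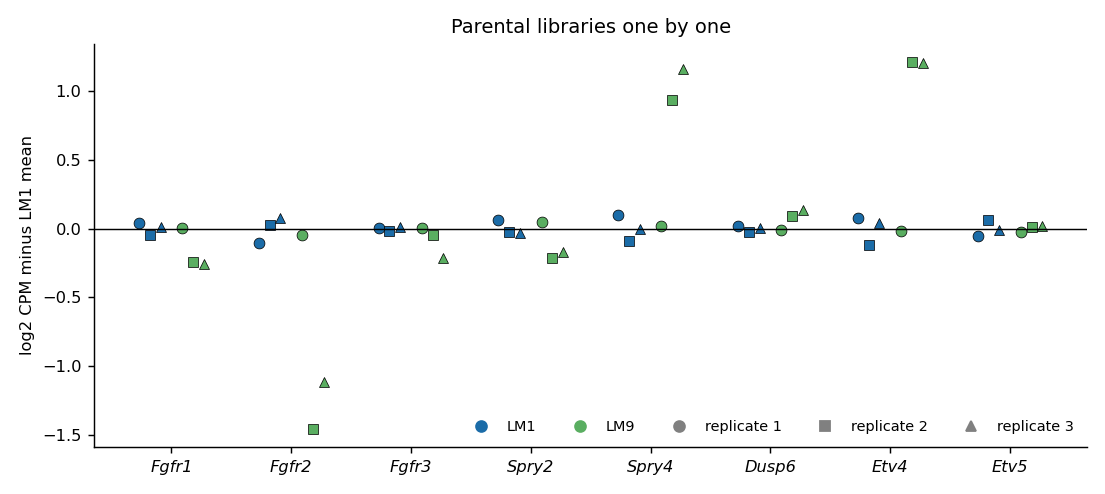
Log2 CPM of each LM1 (blue) and LM9 (green) library minus the mean of the LM1 libraries (vertical axis), for 8 members, with symbols for replicates 1 to 3. Fgf2 and Fgfr4 are left out because of their low counts. The LM9 circle (replicate 1) lies with the LM1 symbols for Fgfr2, Spry4 and Etv4, whereas LM9 replicates 2 and 3 are lower for Fgfr2 (47.3 and 59.8 CPM) and higher for Spry4 (37.9 and 44.3 CPM) and Etv4 (73.2 and 73.0 CPM).

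The rest of the pathway was read from lists of its parts, 91 genes tested in all, members included. Of these, 32 were higher and 44 lower under the LM1 Nfib KO label (all genes 43.1% and 38.1%), and 35 were higher and 42 lower under the LM9 Nfib KO label (all genes 44.3% and 38.0%). Without LM9 replicate 1 these counts were 35 and 51 in LM1, and 43 and 42 in LM9. The share past the threshold, 83.5% in LM1 and 84.6% in LM9, was close to that of all genes (81.2% and 82.3%), so the lists are described by their genes. Of the 91 genes, 10 passed the filter through the knockout-labelled libraries alone and 5 through the parental ones alone, and these are given by their levels without a p. Without them, 76 genes remained, of which 22 were higher and 39 lower in LM1 and 25 and 37 in LM9. Of all genes that did not pass through 1 side alone, 78.7% passed the threshold in LM1 and 80.2% in LM9.

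Of the FGF ligands, 6 of 22 listed were in the tables. Of these 6, 3 were higher and 2 lower in each line, beside 43.1% and 38.1% of all genes in LM1 and 44.3% and 38.0% in LM9. All 3 higher ligands passed the filter through the knockout-labelled libraries alone, and 1 of the 2 lower ones through the parental ones alone. Besides Fgf2, Fgf21, an endocrine FGF, was one of these 3, and went from 0.122 to 7.44 CPM in LM1 and from 7 counts in LM9 to 6.81 CPM, a ratio of 77.6 (95% exact counting interval 37.5 to 194). Fgf11, an intracellular FGF homologue that does not act through the receptors, passed through the parental libraries alone, and went from 6.65 to 0.112 CPM in LM1 and from 5.21 to 0.0578 CPM in LM9. Fgf1, a ligand of all FGF receptors, fell from 7.53 to 0.959 CPM and from 7.60 to 0.797 CPM (-2.97 and -3.24, adjusted p = 1.87e-08 and 1.3e-08 by limma-voom).

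Receptors and co-receptors gave 7 higher and 3 lower of 10 genes in LM1 (all genes 43.1% and 38.1%), and 7 higher, 1 lower and 2 not past the threshold in LM9 (all genes 44.3% and 38.0%). In each line 5 of the 7 (Fgfr4, Flrt1, Flrt2, Cdh2 and Ncam1) passed the filter through the knockout-labelled libraries alone, so their direction was fixed by inclusion, and the other 5 genes of the list gave 2 higher and 3 lower in LM1 and 2 higher and 1 lower in LM9. Flrt1 and Cdh2 were named here after their values were seen. A pair of adhesion molecules that can associate with FGF receptors had 0 counts in every parental library. Flrt2 was at 77.6 CPM in the LM1 Nfib KO-labelled libraries and 79.4 CPM in the LM9 Nfib KO-labelled ones, at least 759-fold and at least 700-fold higher than the floor of 3 counts per library. Ncam1 was at 24.2 and 24.8 CPM, at least 237-fold and at least 219-fold higher. Heparan sulphate carriers and enzymes were split, with 7 of 19 higher and 9 lower in LM1 and 8 higher and 10 lower in LM9, beside 43.1% and 38.1% of all genes in LM1 and 44.3% and 38.0% in LM9. With library totals they were 7 and 9 in LM1 and 9 and 8 in LM9. Of these 19, 2 passed the filter through the knockout-labelled libraries alone and 1 through the parental ones alone, and without them 5 were higher and 8 lower in LM1 and 6 and 9 in LM9. Sdc4, a syndecan, fell from 1264 to 78.0 CPM in LM1 (-4.02, adjusted p = 7.34e-12 by limma-voom) and from 1457 to 76.9 CPM in LM9 (-4.24, adjusted p = 6.53e-12 by limma-voom), while the glypican Gpc4 rose from 6.09 to 38.6 CPM in LM1 (2.67, adjusted p = 0.000255 by limma-voom) and from 20.0 to 38.0 CPM in LM9 (1.24, adjusted p = 0.0119 by limma-voom). Gpc4 was at 6.27 CPM in LM9 replicate 1 and at 26.2 and 27.7 CPM in the others, and without replicate 1 its change in LM9 was 0.50 (SE 0.06, adjusted p = 1.01e-06 by limma-voom). Both FGF carrier proteins passed the filter through 1 side alone. Fgfbp1 went from 2.31 to 0.0867 CPM in LM1 and from 4.34 to 0.0935 CPM in LM9. Fgfbp3 went from 0.195 to 5.31 CPM and from 0.155 to 4.51 CPM.

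Among adaptors and kinases of the RAS-ERK cascade, 7 of 22 were higher and 13 lower in LM1, where 43.1% and 38.1% of all genes were, and 7 were higher and 7 lower in LM9, where 44.3% and 38.0% of all genes were. Without LM9 replicate 1 they were 7 and 15 in LM1 and 12 and 7 in LM9, and with library totals 7 and 9 in LM1 and 11 and 7 in LM9. Mapk3 (ERK1) fell from 272 to 53.0 CPM in LM1 and from 371 to 53.0 CPM in LM9 (-2.36 and -2.78, adjusted p = 1.05e-08 and 2.62e-09 by limma-voom). Map2k2 (MEK2) rose from 54.8 to 240.5 CPM and from 60.2 to 228 CPM (2.14 and 1.92, adjusted p = 7.23e-11 and 1.59e-10 by limma-voom). Rps6ka1, a kinase activated by ERK, fell from 90.7 to 0.751 CPM and from 104 to 0.593 CPM (-6.89 and -7.43, adjusted p = 1.08e-11 and 9.89e-12 by limma-voom). Ptpn11, the phosphatase SHP2 that works downstream of FRS2, rose from 126 to 317 CPM and from 96.5 to 315 CPM (1.33 and 1.73, adjusted p = 1.09e-06 and 1.26e-07 by limma-voom).

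Feedback inhibitors were mostly lower, at 12 of 17 in LM1 with 2 higher, and 12 with 4 higher in LM9, beside 38.1% and 38.0% of all genes lower and 43.1% and 44.3% higher. Next to Dusp6, Il17rd (SEF, an inhibitor of FGF signalling) fell from 31.7 to 2.27 CPM and from 24.9 to 2.35 CPM (-3.80 and -3.37, adjusted p = 2.57e-08 and 7.4e-08 by limma-voom). Dusp5, an ERK phosphatase of the nucleus, rose from 9.83 to 37.5 CPM and from 14.7 to 37.5 CPM (1.94 and 1.43, adjusted p = 1.73e-06 and 1.55e-05 by limma-voom), so the ERK phosphatases did not move together. Rasa1, a RAS GTPase-activating protein, rose as well (1.31 and 1.83, adjusted p = 2.11e-06 and 1.71e-07 by limma-voom).

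Targets that ERK induces gave 4 higher and 4 lower of 13 genes in LM1 (all genes 43.1% and 38.1%) and 4 higher and 9 lower in LM9 (all genes 44.3% and 38.0%). They were 6 and 6 in LM1 and again 4 and 9 in LM9 without LM9 replicate 1, and with library totals 5 and 3 in LM1 and 4 and 6 in LM9. Etv1 and Epha4 passed the filter through the parental libraries alone, and without them 2 were lower in LM1 and 7 in LM9. Etv1, the remaining close relative of Etv4 and Etv5, went from 60.3 to 0.173 CPM and from 40.8 to 0.245 CPM. Epha4, an ephrin receptor, was at 3.81 CPM in LM1 and had 0 counts in the LM1 Nfib KO-labelled libraries, at least 49.0-fold lower, and it went from 6.13 CPM in LM9 to 1 count over the LM9 Nfib KO-labelled ones. Egr1, an immediate early factor, rose from 3.44 to 51.8 CPM and from 3.05 to 49.9 CPM (3.91 and 4.04, adjusted p = 1.38e-10 and 1.79e-10 by limma-voom), and Fosl1, an AP-1 subunit, from 27.6 to 261 CPM and from 51.9 to 251 CPM (3.25 and 2.37, adjusted p = 8.9e-08 and 9.17e-07 by limma-voom).

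Regulators of FGFR splicing were tested for 4 of 5 genes listed. Esrp2, which favours the epithelial receptor isoforms, was at 2.53 CPM in LM1 and had 5 counts over the LM1 Nfib KO-labelled libraries, a ratio of 58.4 (95% exact counting interval 24.6 to 182), and it went from 1.59 to 0.0768 CPM in LM9. LM9 replicate 1 was at 3.10 CPM and replicates 2 and 3 at 0.766 and 0.905 CPM, so the LM9 mean without replicate 1 was 0.835 CPM. Esrp2 passed the filter through the parental libraries alone. Ptbp1 rose from 242 to 448 CPM and from 292 to 442 CPM (0.89 and 0.61, adjusted p = 2.71e-06 and 6.4e-05 by limma-voom). Rbfox2 rose from 164 to 240 CPM and from 129 to 241 CPM (0.54 and 0.91, adjusted p = 0.000304 and 4.53e-06 by limma-voom). Gene counts do not separate receptor isoforms.

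**Figure D5:**
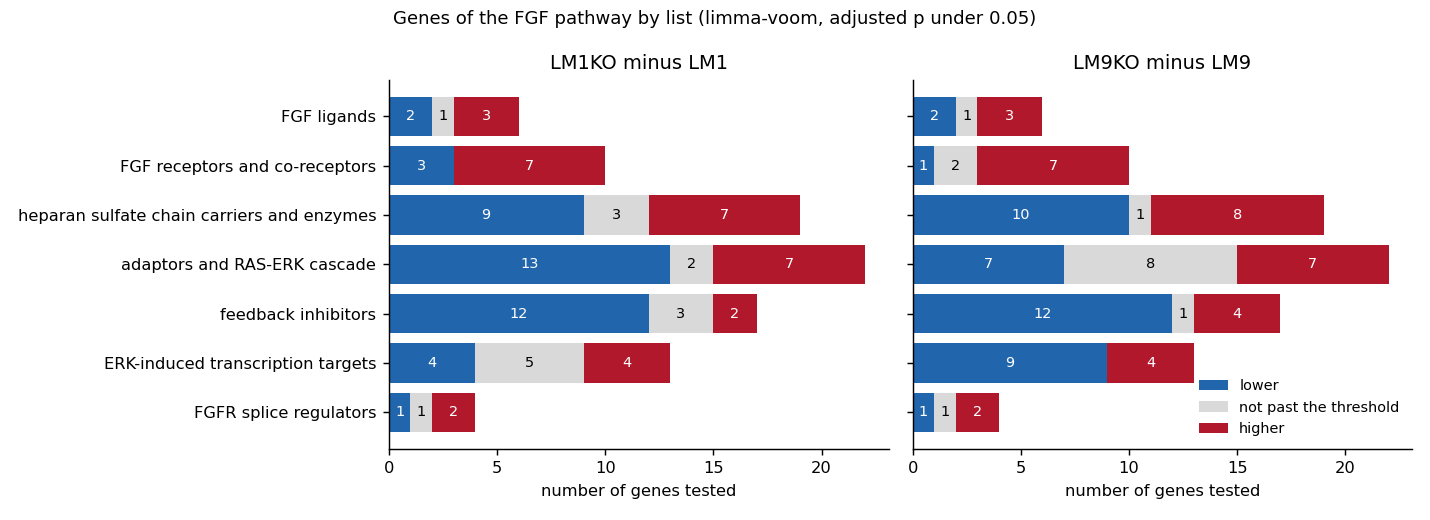
Number of genes (horizontal axes, from 0) of each pathway list that were lower (blue), not past the threshold (grey) or higher (red) in the LM1 Nfib KO-labelled libraries against LM1 (left) and in the LM9 Nfib KO-labelled ones against LM9 (right). Feedback inhibitors show 12 lower genes in each panel, and the receptors and co-receptors show 7 higher genes in each, of which 5 passed the filter through the knockout-labelled libraries alone.

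The genes whose profile over the 12 libraries was most like that of the leading receptor and the leading feedback gene were looked up among the 10272 genes that averaged at least 10 CPM. For Fgfr1 these were Coro6, Cdc42ep1 and Inafm2 (Pearson's r of log2 CPM 0.984, 0.984 and 0.979), each higher in LM1 than in the other groups, for example Cdc42ep1 at 146 CPM in LM1, 106 CPM in LM9 and 86.2 and 83.2 CPM under the knockout labels. For Dusp6 they were Prss12, Gata3 and Tusc3 (r = 0.999 each), and Gata3, a luminal mammary transcription factor, was at 123 CPM in LM1, 133 CPM in LM9 and 7.23 and 6.56 CPM under the knockout labels. The libraries fall into separate sets, so these values describe likeness only and carry no p.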

How the data were processed

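The study sequenced 12 libraries of poly-A RNA from tumourspheres, and groups were read from the sample titles. The authors aligned reads to mm10 with STAR (version not given in the sources used here) and counted read starts over the union of each gene's exons with QuasR. What the authors deposited are raw counts per gene. Whether the counting used strand, and how reads with several alignments were treated, were not given in the sources used here. Titles do not say whether replicates were separate cultures. The study's methods mention technical triplicates for tumoursphere measurements, without naming the RNA libraries. The p-values thus measure the spread between these libraries, which may be technical.

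All 12 libraries entered 1 limma-voom fit (limma 3.58.1, edgeR 4.0.16, R 4.3.3), with 1 mean per group, TMM factors, the filterByExpr filter (count minimum 10, total minimum 15) and Benjamini-Hochberg adjustment within each contrast over 18176 genes, at a threshold of 0.05. Names and coordinates (1-based) came from GENCODE M21 (GRCm38, the mm10 assembly), with 18268 of 18278 identifiers matched. Receptor shares used CPM per kb of exon union. At 3 counts, the floor lay between 0.0730 and 0.121 CPM. Floors and counting intervals cover counting error only. Alternatives were edgeR's quasi-likelihood test, DESeq2 1.42.0, other scalings, filters and lengths, a replicate block, quality weights, fits restricted to both groups of a contrast, a call that also needs an absolute log2 fold change over 1, and each library left out. Counts without genes that passed the filter through 1 side alone (fewer than 3 of the 6 libraries of the other side at its CPM minimum) were added after the data were seen. The code was tested on simulated data.

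The members and lists were chosen with earlier results of these data known. All members were named. From each list, the rule took the 2 largest rises and 2 largest falls that passed with 1 direction in LM1 and LM9 and averaged at least 1 CPM. Nearest profiles were the 3 highest correlations for the most abundant receptor and feedback or target gene.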

Additional observations from a re-analysis of the deposited data

How the results depend on the processing

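The calls of Fgfr2, Spry2, Spry4 and Dusp6 in both lines and of Etv4 in LM1 kept their direction and side of the threshold under each alternative run. A minimum mean of 5 CPM left Fgfr4 and Fgf2 untested. Fgfr3 lost its call where an absolute log2 fold change above 1 was demanded, as did Fgfr1 and Etv5 in LM1 and Etv4 and Etv5 in LM9. Fgfr1 changed sign under library totals, to 0.0134 in LM1 and 0.28 in LM9, and in LM9, with no call, to 0.0142 without LM9 replicate 1 and 0.00935 with quality weights. Scaling by library totals also turned the split of called pathway genes in LM1 to 33 higher and 37 lower, and in LM9 to 43 higher and 37 lower (53.8% higher, against 45.5%), and that of members in LM9 to 5 higher and 4 lower. At an absolute log2 fold change above 1, 28 pathway genes were lower in LM1 and 23 higher in LM9. Between LM1 and LM9, DESeq2 called 4 members (33.9% of all genes), library totals 5 (28.8%), a minimum mean of 5 CPM 3 (39.4%) and quality weights 5 (63.8%), and quality weights called 5 members for the difference between the changes (58.1%). Leaving out each library gave 0 to 5 members for both of these comparisons, with 5 only without LM9 replicate 1 (65.7% of all genes between LM1 and LM9, and 57.2% for the difference). It gave 9 or 10 in LM1, 9 in LM9 and 0 between the knockout labels. With the length of the longest transcript, the differences in receptor share in LM1 were 26.2 percentage points for Fgfr1, -31.5 for Fgfr2, 4.65 for Fgfr3 and 0.602 for Fgfr4, and 0.576 for Fgfr4 in LM9. The cause of these changes was not tested.

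With the replicate number as a block, 10, 9, 0, 0 and 0 members passed in the contrasts of LM1, LM9, their difference, the parental groups and the knockout labels, as without it, and 32 pathway genes were higher and 44 lower in LM1, and 34 and 42 in LM9. Same-numbered libraries deviated from their group means with correlations from -0.0876 to 0.0406 across genes. No shared deviation by number was seen, but with 3 libraries per group, and LM9 replicate 1 apart from its group, this check cannot exclude pairing. Depth limits what can be said of Fgfr4 and Fgf2 in LM1 and LM9, where they had at most 3 and 15 counts in a library.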
